A study of Zea mays with 6 samples.

Results

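The histone gene family of maize was followed by RNA-seq in embryo sacs, in the nucellus around them and in embryo sacs after pollination. A transcript model was taken as a histone where its deposited protein description names histone H1, H2A, H2B, H3 or H4, and enzymes that modify histones were left out. The rule found 74 models of 59 genes among 42007 models of 31057 genes listed in any library, with 10 models of H1, 17 of H2A, 8 of H2B, 19 of H3 and 20 of H4. All samples came from the inbred line Q319. They fall into embryo sacs whose labels name no pollination, called unpollinated here, nucellus, and embryo sacs of ovules pollinated 14 to 16 h earlier, with 2 libraries per group that are labelled biological replicates. Embryo sacs and nucellus were separated by enzymes, so every group passed through that treatment, and each bulk library mixes all cell types that the dissection kept. The labels name no age or growth condition, and fewer cells of a type cannot be told apart from less RNA per cell.

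Histones are the proteins around which nuclear DNA is wound. H2A, H2B, H3 and H4 form the nucleosome core, and H1 binds the linker DNA between cores. Many plant histone genes are transcribed mainly while DNA is copied, and variant genes are also used outside that phase. The embryo sac is the female gametophyte and holds the egg cell and the central cell, and double fertilisation starts the zygote and the endosperm. In plants, chromatin of the gametes and of the fertilisation products is known to be rebuilt with changed histone content.

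Total unique reads averaged 3140680 per library for unpollinated embryo sac, 3102468 per nucellus library and 2610386 after pollination, and single libraries held between 11218 and 34032 histone reads. The 74 histone models took 0.399% and 0.371% of these reads in the unpollinated embryo sac libraries, 0.881% and 1.06% in nucellus, and 0.460% and 0.439% after pollination. The tissue labels were checked by marker descriptions: all 9 embryo sac marker models were higher in embryo sac than in nucellus, and their summed level was 1700 and 1890 CPM in unpollinated embryo sac, 19.7 and 21.6 CPM in nucellus and 2180 and 2200 CPM in pollinated embryo sac. Of these 9 markers, 7 had no read in nucellus. A list of 28 pollen and pollen tube models summed to 29.5 to 43.5 CPM in unpollinated, 62.8 to 71.9 CPM in nucellus and 30.5 to 34.8 CPM in pollinated samples, with 9, 12 and 10 of its models at 0 in these groups. The 3 ovule wall markers, a pair of bearded-ear1 models and MADS16, summed to 29.1 and 30.1 CPM in unpollinated embryo sac, 165 and 177 CPM in nucellus, and 38.6 and 47.0 CPM in pollinated embryo sac, with 2, 0 and 1 of them at 0. The part of other tissues in the histone values was not tested.

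Histone genes of one class are near copies of each other, and the deposited counts are named unique reads. Among models with at least 100 reads in a library, the median share of a model's length covered by reads was 41.2% to 46.5% for histones and 79.5% to 82.0% for all other models. How reads that fit several copies were treated is not given in the sources used here. The level of any one histone model, and of a class summed from such models, is therefore uncertain. Of the 74 models, 46 passed the filter on low counts and were tested. The 28 others had between 1 and 30 reads over all 6 libraries, with a median of 4.5.

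Levels are given on 2 scales. RPKM divides reads by model length and by total reads and is used to set genes side by side, and CPM is the read count relative to library sizes scaled by TMM, which centres each library on the bulk of its transcripts. On the RPKM scale, the summed level of H4 was the highest of the classes in each library, at 1621 and 1824 in unpollinated embryo sac, 3065 and 3669 in nucellus, and 1739 and 1939 after pollination. H2B followed, with 965 and 1021 in unpollinated embryo sac, 2826 and 3335 in nucellus, and 1106 and 1147 after pollination. The summed RPKM of H3 was 723 and 729, 1642 and 2133, and 845 and 859 in the same order, that of H2A was 425 and 500, 1038 and 1285, and 566 in both pollinated libraries, and that of H1 was 47.3 and 61.0, 135 and 156, and 46.8 and 56.3. In each class both nucellus libraries stood above all 4 embryo sac libraries. The order of the classes rests on the listed model lengths. CPM does not divide by length, and its sums put H2B (2207 and 2604) above H4 (1529 and 1782) in nucellus. In unpollinated embryo sac H4 (1373 and 1523) stayed above H2B (1301 and 1363). After pollination library 1 had H4 at 1795 and H2B at 1766, and library 2 had 1614 and 1749.

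The make-up of the histone pool differed between tissues. H4 supplied 42.8% and 44.2% of the summed histone RPKM in unpollinated embryo sac, 34.7% and 35.2% in nucellus, and 40.3% and 42.6% after pollination. H2B supplied 24.7% and 25.5%, 31.5% and 32.5%, and 25.2% and 25.6%. The nucellus therefore held a larger share of H2B and a smaller share of H4 than either kind of embryo sac, with no overlap between its libraries and the others. H1 stayed between 1.08% and 1.55% in all libraries.

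The scale set the size of these differences. Mean summed RPKM of all histones was 2.44 times higher in nucellus than in unpollinated embryo sac, and mean summed CPM was 1.51 times higher. By class, the CPM ratio of nucellus to unpollinated embryo sac was 1.81 for H2B, 1.67 for H3, 1.55 for H1, 1.51 for H2A and 1.14 for H4. For H4 the CPM sums of 1373 and 1523 in embryo sac came close to the lower nucellus library at 1529. Summed CPM after pollination was 1.47 times the unpollinated level for H3, 1.42 for H2A, 1.32 for H2B, 1.18 for H4 and 1.13 for H1. On the RPKM scale the same ratios were 1.17, 1.22, 1.14, 1.07 and 0.952. The nucellus libraries were the least alike: the summed CPM of histones was 6075 in library 1 and 7372 in library 2, and 37 of the 46 tested models were higher in library 2.

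**Figure D1:**
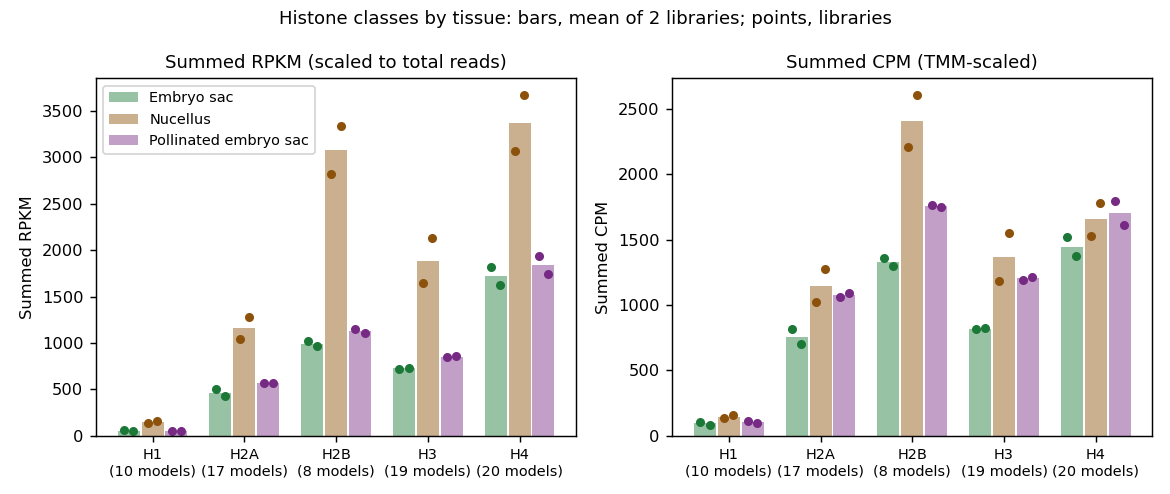
Summed level of each histone class on the RPKM scale (left) and on the CPM scale (right), with bars for the mean of 2 libraries and points for the libraries. Nucellus stands above both kinds of embryo sac in every class on the RPKM scale, and on the CPM scale H4 differs little between tissues.

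Embryo sac was set against nucellus to ask which histone transcripts differ between the female gametophyte and the tissue around it. Of 46 tested models, 11 were lower and 5 were higher in embryo sac at an adjusted p under 0.05 and a change of at least 2-fold (edgeR quasi-likelihood test, Benjamini-Hochberg adjusted over 18844 models). That is 23.9% lower and 10.9% higher, where 16.3% of all tested models were lower and 23.2% higher, and 39.4% were called in either direction. The median log2 change of the tested histones was -0.47, against -0.00 for all tested models. All 5 higher models belonged to H2A, and the lower ones were 1 of H1, 3 of H2A, 3 of H2B, 3 of H3 and 1 of H4. Without embryo sac library 2 the counts were 7 lower and 8 higher. With scaling to total reads in place of TMM they were 26 lower and 2 higher, since that scaling moves the median of all models from -0.00 to -0.75.

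Pollinated embryo sacs were set against unpollinated ones to ask which histone transcripts differ 14 to 16 h after pollination. Of 46 tested models, 6 were higher (13.0%) and 4 lower (8.70%), where 13.0% of all tested models were higher, 19.3% lower and 32.3% called in all. The share of higher calls thus equalled the background. By class, 5 of the 6 higher models were H3 and the other was H2B, while the lower models were 2 of H1, 1 of H2A and 1 of H3. The median log2 change was 0.22, against -0.08 for all tested models. Without embryo sac library 1, or without pollinated library 2, 2 models were lower.

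Pollinated embryo sac and nucellus differed in 12 of the 46 models, 6 higher (13.0%) and 6 lower (13.0%), where 27.2% of all tested models were higher, 28.0% lower and 55.2% called. The median log2 change was -0.22, against -0.06 for all tested models. With scaling to total reads, 2 were higher and 26 lower, and without nucellus library 1 or 2 the lower count was 8 or 4. Each pair of comparisons shares the libraries of a tissue, so their values for a model are not independent of each other.

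**Figure D2:**
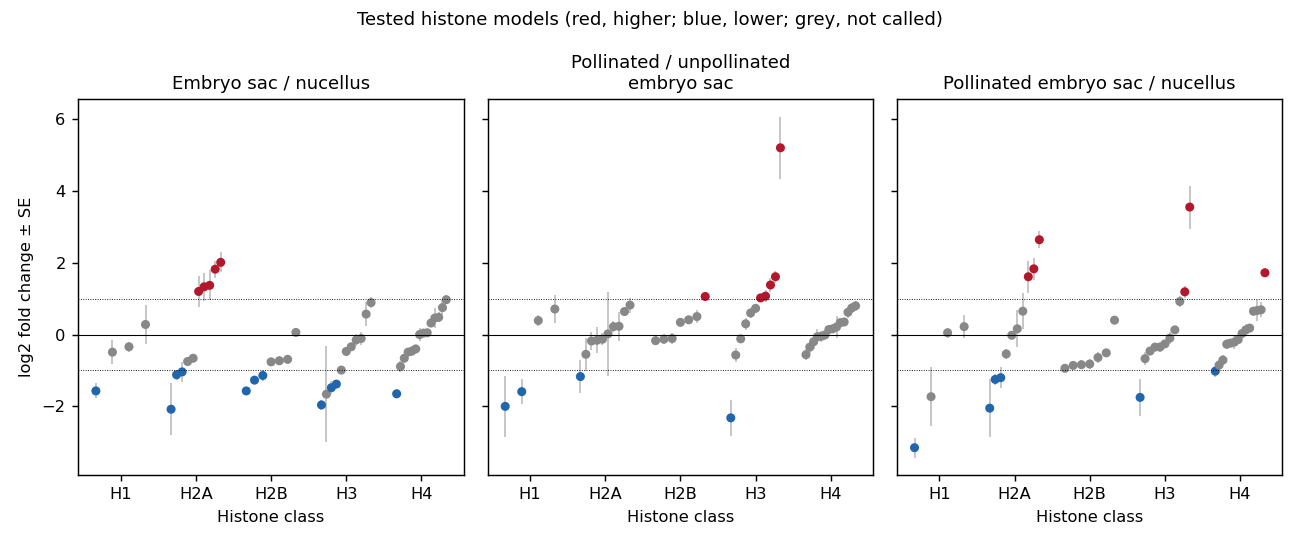
Log2 fold change ± SE of the 46 tested histone models, sorted within each class, in the 3 comparisons. Dotted lines mark a 2-fold change, red and blue points passed the test upward and downward. In the left panel all red points are H2A models, and in the middle panel 5 of 6 are H3 models.

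Linker histone H1 came mainly from a single gene. GRMZM2G164020_T02 supplied 66.1% and 66.0% of the summed H1 RPKM in unpollinated embryo sac, 47.5% and 56.0% in nucellus, and 83.2% and 78.7% after pollination. Its level was 75.7 and 58.4 CPM in unpollinated embryo sac, 71.6 and 98.1 CPM in nucellus, and 98.0 and 78.4 CPM after pollination. On the CPM scale nucellus overlapped with both kinds of embryo sac, and the pollinated libraries lay just above the unpollinated ones. None of its 3 changes reached 2-fold (log2 change of -0.34 ± 0.14 against nucellus and 0.39 ± 0.15 after pollination). Its RPKM in nucellus, 64.0 and 87.3, lay above the embryo sac libraries, which spanned 31.2 to 46.8.

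The next H1 model, GRMZM2G069911_T01, differed between all 3 tissues. It stood at 17.4 and 14.1 CPM in unpollinated embryo sac, 47.0 and 46.8 CPM in nucellus, and 2.54 and 7.84 CPM after pollination, so that the groups did not overlap. Embryo sac was lower than nucellus at a log2 change of -1.57 ± 0.21 (edgeR adjusted p = 2.33e-11), and the pollinated sac was lower than the unpollinated at -1.59 ± 0.35 (edgeR adjusted p = 4.61e-05) and lower than nucellus at -3.15 ± 0.28. The drop after pollination was -1.0 without pollinated library 1 and -2.61 without pollinated library 2, and against nucellus it was -2.55 and -4.16. It is 1 of 2 listed models of its gene, and only 6.76% of its length was covered by reads on average.

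Another H1 gene gave few reads. GRMZM2G080274_T03 had 12 and 5 reads in unpollinated embryo sac, 15 and 8 in nucellus, and 1 and 2 after pollination. The ratio of unpollinated to pollinated was 4.18, with a 95% counting interval of 1.21 to 22.3, and the log2 change was -2.0 ± 0.85 (edgeR adjusted p = 0.0399). That call was lost on leaving out embryo sac library 1 (-1.31), nucellus library 1 or 2 (-2.0 in both fits), pollinated library 1 (-1.63) or pollinated library 2 (-2.52), and with the replicate number as a block (-1.97). The H1-like model GRMZM2G108424_T02 stood between 5.69 and 13.7 CPM in all libraries and was not called.

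H2A held all 5 histone models called higher in embryo sac than in nucellus. Those were 5 of 10 tested H2A models (50.0%), where 23.2% of all tested models were higher. GRMZM2G107540_T01 stood at 27.4 and 27.1 CPM in unpollinated embryo sac, 5.73 and 9.53 CPM in nucellus, and 54.8 and 41.6 CPM after pollination. The tissues did not overlap, and the model was higher than in nucellus by 1.82 ± 0.24 before pollination (edgeR adjusted p = 3.18e-11) and by 2.64 ± 0.23 after it (edgeR adjusted p = 2.58e-21), with 1.07 and 1.72 under scaling to total reads. From unpollinated to pollinated it changed by 0.82 ± 0.21, under the 2-fold threshold. Its share of the summed H2A RPKM was 5.36% in unpollinated embryo sac, 0.979% in nucellus and 6.86% after pollination.

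GRMZM2G163956_T01 had the same order of tissues against nucellus. Its level was 18.8 and 23.6 CPM in unpollinated embryo sac, 5.28 and 5.20 CPM in nucellus, and 19.8 and 17.6 CPM after pollination. Both kinds of embryo sac lay above nucellus without overlap, at a log2 change of 2.01 ± 0.28 before pollination (edgeR adjusted p = 1.74e-10) and 1.83 ± 0.30 after it. With scaling to total reads the first change was 1.26 and the second 0.91, under the threshold.

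The other 3 H2A models higher in embryo sac were low. Reads covered on average 4.57% of the length of GRMZM2G348319_T01, 7.02% of GRMZM2G046055_T01 and 24.8% of GRMZM2G130746_T01. A model described as a probable H2A variant 3-like protein, GRMZM2G348319_T01, stood at 7.46 and 6.48 CPM in unpollinated embryo sac, 2.52 and 2.82 CPM in nucellus, and 6.60 and 9.79 CPM after pollination. It was higher than in nucellus by 1.37 ± 0.42 before pollination and 1.61 ± 0.44 after it, and with scaling to total reads by 0.63 and 0.69, neither called. GRMZM2G046055_T01 stood at 8.88 and 8.01 CPM in unpollinated embryo sac, 3.44 and 3.25 CPM in nucellus, and 5.08 and 2.45 CPM after pollination.

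That gene was thus higher in unpollinated embryo sac than in either other tissue, by 1.33 ± 0.39 over nucellus (0.58 and not called with scaling to total reads). It fell by 1.17 ± 0.46 after pollination (edgeR adjusted p = 0.0269), a call that was lost without embryo sac library 1 (-1.09) or 2 (-1.23) and without pollinated library 2 (-0.72). Without pollinated library 1 the change was -1.77. GRMZM2G130746_T01, the minor model of its gene, was higher in embryo sac by 1.20 ± 0.43, and this was lost without embryo sac library 1 (0.62) or nucellus library 2 (0.83) and with scaling to total reads (0.46). DESeq2 called 2 H2A models higher in embryo sac, GRMZM2G107540_T01 and GRMZM2G163956_T01.

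Most H2A transcript came from other models that were not higher in embryo sac. GRMZM2G047813_T01, with the highest mean RPKM of all 74 histone models (475), stood at 572 and 507 CPM in unpollinated embryo sac, 757 and 949 CPM in nucellus, and 821 and 857 CPM after pollination. Unpollinated embryo sac was the lowest group, and the log2 changes of -0.66 ± 0.11 against nucellus and 0.64 ± 0.11 after pollination lay under the 2-fold threshold. GRMZM2G130746_T02 was similar against nucellus at -0.75 ± 0.13, and its change after pollination was 0.22 ± 0.15 (edgeR adjusted p = 0.206).

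Lower in embryo sac were 3 of the 10 tested H2A models (30.0%), where 16.3% of all tested models were lower. Reads covered on average 15.9% of the length of GRMZM2G305046_T01, 9.8% of GRMZM5G883764_T02 and 6.94% of GRMZM2G028955_T01. GRMZM2G305046_T01 stood at 67.2 and 51.1 CPM in unpollinated embryo sac, 110 and 147 CPM in nucellus, and 49.8 and 58.8 CPM after pollination. Both embryo sac groups lay below nucellus, at -1.12 ± 0.14 before pollination (-0.91 without embryo sac library 2 and -0.89 without nucellus library 2, under the threshold) and -1.25 ± 0.15 after it. GRMZM5G883764_T02 was lower by the same pattern, at -1.04 ± 0.27 (-0.89 without embryo sac library 2 and -0.80 without nucellus library 2) and -1.20 ± 0.30 (-0.96 without nucellus library 2). The last, GRMZM2G028955_T01, had 4 and 0 reads in unpollinated embryo sac, 14 and 15 in nucellus, and 2 and 1 after pollination, and its calls against nucellus (-2.08 ± 0.72 and -2.05 ± 0.80) were both lost without nucellus library 1 (-2.08 and -2.06) or 2 (-2.06 and -2.03). The first was also lost without embryo sac library 2 (-1.13) and was -6.34 without library 1, and the second was lost without pollinated library 1 (-2.61) or 2 (-1.60). Only the nucellus libraries carried GRMZM2G028955_T01 past the filter on low counts, so its testing rested on the group where it was high.

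As a class the tested H2A models had a median log2 change of 0.27 against nucellus, which turned to -0.48 with scaling to total reads and to -0.05 without embryo sac library 1. The 3 other models described as H2A variant 3-like had few reads and were not tested: GRMZM5G801589_T01 had 7 and 3 reads in unpollinated embryo sac, 2 and 2 in nucellus and 6 and 6 after pollination, and GRMZM2G040490_T01 and GRMZM2G181497_T01 had 1 read each.

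**Figure D3:**
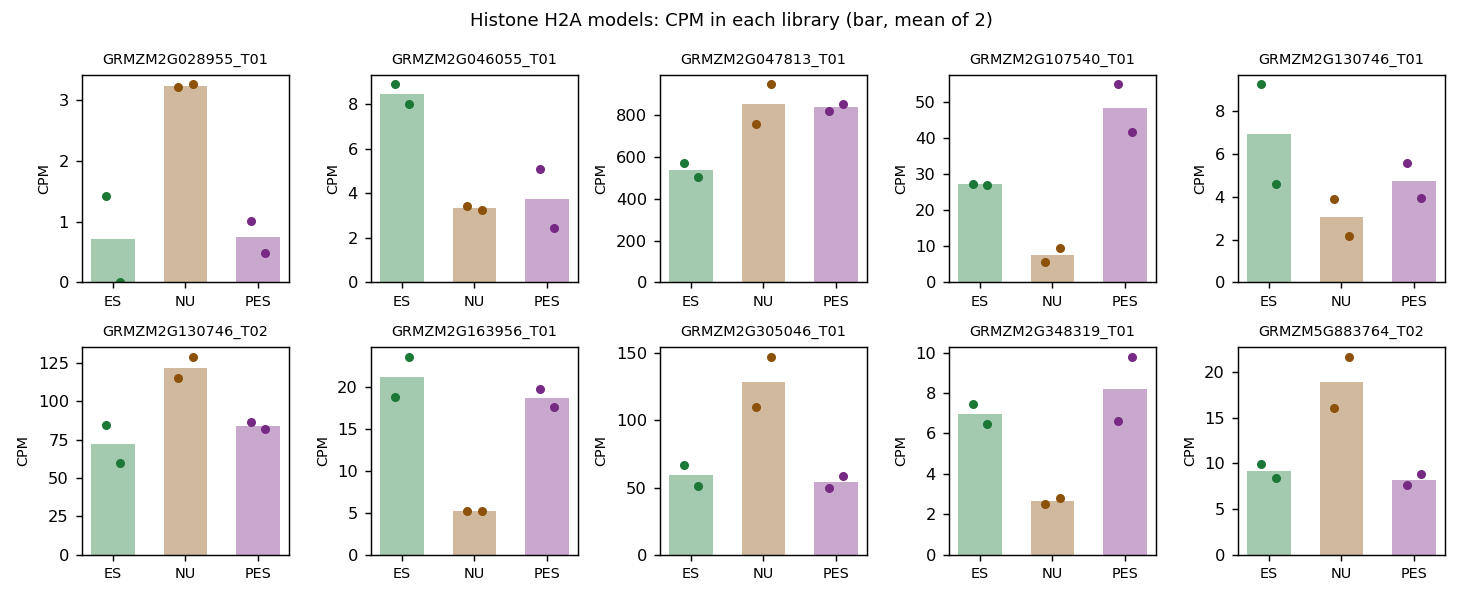
CPM of the 10 tested H2A models in each library (points) with the mean of 2 (bars), for unpollinated embryo sac (ES), nucellus (NU) and pollinated embryo sac (PES). GRMZM2G107540_T01, GRMZM2G163956_T01 and GRMZM2G348319_T01 are lowest in nucellus, while GRMZM2G305046_T01 and GRMZM5G883764_T02 are highest there.

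No H2B model supplied more than 29.1% of the class's summed RPKM in any library. Of 7 tested models, 3 (42.9%) were lower in embryo sac than in nucellus, where 16.3% of all tested models were lower. After pollination 1 rose (14.3%), near the 13.0% of all tested models. In embryo sac 6 of the 7 had a negative log2 change against nucellus, with a class median of -0.76. The model described as H2B.3-like, GRMZM2G119071_T01, had the highest mean RPKM of the class. It stood at 254 and 254 CPM in unpollinated embryo sac, 700 and 803 CPM in nucellus, and 524 and 531 CPM after pollination. The 3 groups did not overlap, and the pollinated level lay between the others. It was lower in embryo sac at -1.57 ± 0.11 (edgeR adjusted p = 5.81e-30) and rose by 1.06 ± 0.11 after pollination (edgeR adjusted p = 3.38e-16), or by 0.88 with scaling to total reads, under the threshold. Its share of the summed H2B RPKM was 17.6% in unpollinated embryo sac, 28.1% in nucellus and 28.7% after pollination.

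GRMZM2G305027_T01, described as H2B.2, was also lower in embryo sac. It stood at 181 and 198 CPM in unpollinated embryo sac, 431 and 486 CPM in nucellus, and 245 and 259 CPM after pollination, with log2 changes of -1.27 ± 0.11 against nucellus (edgeR adjusted p = 4.45e-22) and 0.41 ± 0.12 after pollination. In the maize B73 reference gene table (Zm-B73-REFERENCE-NAM-5.0), its gene is next to that of the H2A model GRMZM2G305046_T01, with 0 entries between them. The neighbours were both lower in embryo sac than in nucellus, by -1.27 and -1.12 on the log2 scale, and after pollination they stood at 0.41 ± 0.12 and -0.13 ± 0.16. No other pair among the 26 histone genes found once in that table was listed as neighbours.

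Other H2B models differed less. GRMZM2G304575_T02, H2B.3-like, stood at 42.6 and 24.4 CPM in unpollinated embryo sac, 70.9 and 77.6 CPM in nucellus and 52.8 and 42.6 CPM after pollination, with a log2 change of -1.14 ± 0.16 against nucellus that was -0.76 without embryo sac library 2. The H2B.1 model GRMZM2G141432_T01 stood at 442 and 423 CPM in unpollinated embryo sac, 381 and 448 CPM in nucellus, and 544 and 554 CPM after pollination. On the CPM scale unpollinated embryo sac and nucellus overlapped for it (0.06 ± 0.11, edgeR adjusted p = 0.64), and the pollinated libraries lay above both. Its RPKM was highest in nucellus, at 355 and 414, beside 245 and 235 in unpollinated and 270 and 271 in pollinated embryo sac. GRMZM2G472696_T01 (H2B.3-like), GRMZM2G057852_T01 (H2B.3) and GRMZM2G401147_T01 (H2B.2-like) had log2 changes of -0.76, -0.73 and -0.69 against nucellus and of -0.17, -0.11 and -0.13 after pollination. Between pollinated embryo sac and nucellus, edgeR called 0 of 7 H2B models, where 55.2% of all tested models were called. All 7 had an edgeR adjusted p under 0.05, 1 upward and 6 downward, but each changed by less than 2-fold. DESeq2 also called 0, and limma on log2(RPKM + 1) called 6 lower. The model GRMZM2G163939_T02, H2B.2-like, had 5 reads in all and was not tested.

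H3 carried most of the histone rises after pollination. Of 11 tested H3 models, 5 (45.5%) rose and 1 (9.09%) fell, where 13.0% of all tested models were higher and 19.3% lower. GRMZM2G376957_T01 stood at 30.6 and 33.2 CPM in unpollinated embryo sac, 99.1 and 149 CPM in nucellus, and 101 and 94.5 CPM after pollination. The unpollinated libraries were far below the rest, and on this scale the pollinated libraries overlapped with nucellus. Its RPKM was 13.3 and 14.5 in unpollinated embryo sac, 72.2 and 108 in nucellus, and 39.2 and 36.2 after pollination, without overlap. Embryo sac was lower than nucellus at -1.96 ± 0.15 (edgeR adjusted p = 4.63e-22), and the model rose by 1.61 ± 0.17 after pollination (edgeR adjusted p = 6.19e-15), to -0.35 ± 0.14 against nucellus.

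GRMZM2G355773_T01 and GRMZM2G418258_T01 were likewise lowest in unpollinated embryo sac. The first stood at 21.7 and 22.1 CPM in unpollinated embryo sac, 52.3 and 69.8 CPM in nucellus, and 55.3 and 58.8 CPM after pollination. It was lower than nucellus at -1.48 ± 0.18 and rose by 1.38 ± 0.19. The other stood at 139 and 132 CPM, 303 and 402 CPM, and 270 and 282 CPM, with changes of -1.38 ± 0.12 (edgeR adjusted p = 2.24e-22) and 1.02 ± 0.12 (edgeR adjusted p = 2.91e-13), the last at 0.99 without embryo sac library 2 and 0.85 with scaling to total reads. GRMZM2G475899_T01 came close to the threshold in both, at -0.99 ± 0.12 and 0.73 ± 0.12. These values for the fall and the rise share the unpollinated libraries, so they are 2 readings with a common term.

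Another pair of H3 models rose after pollination and was not called between unpollinated embryo sac and nucellus. GRMZM2G387076_T03 stood at 37.7 and 41.6 CPM in unpollinated embryo sac, 39.2 and 48.5 CPM in nucellus, and 97.0 and 70.0 CPM after pollination. It rose by 1.07 ± 0.17 (edgeR adjusted p = 1e-08), or by 0.83 without pollinated library 1 and 0.90 with scaling to total reads. GRMZM2G447984_T01 was almost silent before pollination, with 1 and 0 reads in unpollinated embryo sac and 4 and 2 in nucellus, and it had 24 and 9 reads after pollination. Only the pollinated libraries carried it past the filter on low counts, so its testing rested on the group where it was high. The ratio of pollinated to unpollinated was 44.7 with a 95% counting interval of 7.49 to 1820, and the fitted log2 change was 5.20 ± 0.87 (edgeR adjusted p = 9.12e-08). On leaving out 1 library this change was 4.33 without pollinated library 1, 5.80 without pollinated library 2, 7.71 without embryo sac library 1 and 4.40 without embryo sac library 2. Against nucellus the model was higher by 3.55 ± 0.60, or by 2.68 without pollinated library 1 and 4.14 without pollinated library 2. Both pollinated libraries lay above the other 4. Unpollinated embryo sac also lay below nucellus without overlap, at a log2 change of -1.66 ± 1.34 (edgeR adjusted p = 0.29), counts too low to decide that difference.

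The most abundant H3 model was steadier on the CPM scale. GRMZM5G864735_T01 supplied 45.7% and 46.0% of the summed H3 RPKM in unpollinated embryo sac, 37.9% and 36.9% in nucellus, and 30.8% and 33.1% after pollination. It stood at 265 and 269 CPM in unpollinated embryo sac, 298 and 379 CPM in nucellus, and 233 and 259 CPM after pollination, with changes of -0.34 ± 0.11 and -0.12 ± 0.11. Its RPKM was 330 and 336 in unpollinated embryo sac, 622 and 787 in nucellus, and 260 and 284 after pollination. Its share of H3 after pollination was below that in the other tissues in both libraries. GRMZM2G401581_T01 changed by 0.60 ± 0.13 after pollination and GRMZM2G130079_T02 by -0.57 ± 0.20, both under the threshold.

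Models of one H3 gene moved apart. GRMZM2G171387_T01 stood at 52.6 and 66.0 CPM in unpollinated embryo sac, 26.6 and 37.0 CPM in nucellus, and 73.1 and 72.5 CPM after pollination. The other model, GRMZM2G171387_T02, stood at 9.95 and 10.3 CPM, 5.73 and 7.80 CPM, and 2.54 and 1.47 CPM. The first was higher than nucellus after pollination by 1.19 ± 0.16 (0.97 without nucellus library 1, and 0.26 and not called with scaling to total reads). The second fell by 2.32 ± 0.50 after pollination (edgeR adjusted p = 3.7e-05) and was lower than nucellus at -1.75 ± 0.51, a call lost without pollinated library 2 (-1.37). How reads shared by both models were assigned is not given in the sources used here.

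CENH3, the H3 variant that marks centromeres, was rare. Its model GRMZM2G158526_T02 had 3 and 3 reads in unpollinated embryo sac, 4 and 7 in nucellus, and 1 and 1 after pollination. GRMZM2G158526_T03 had 2 reads, both in nucellus library 1. A further model of the same gene, described as histone H3, had 1 and 1 reads in unpollinated embryo sac, 4 and 5 in nucellus and none after pollination, and none of these 3 models was tested.

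**Figure D4:**
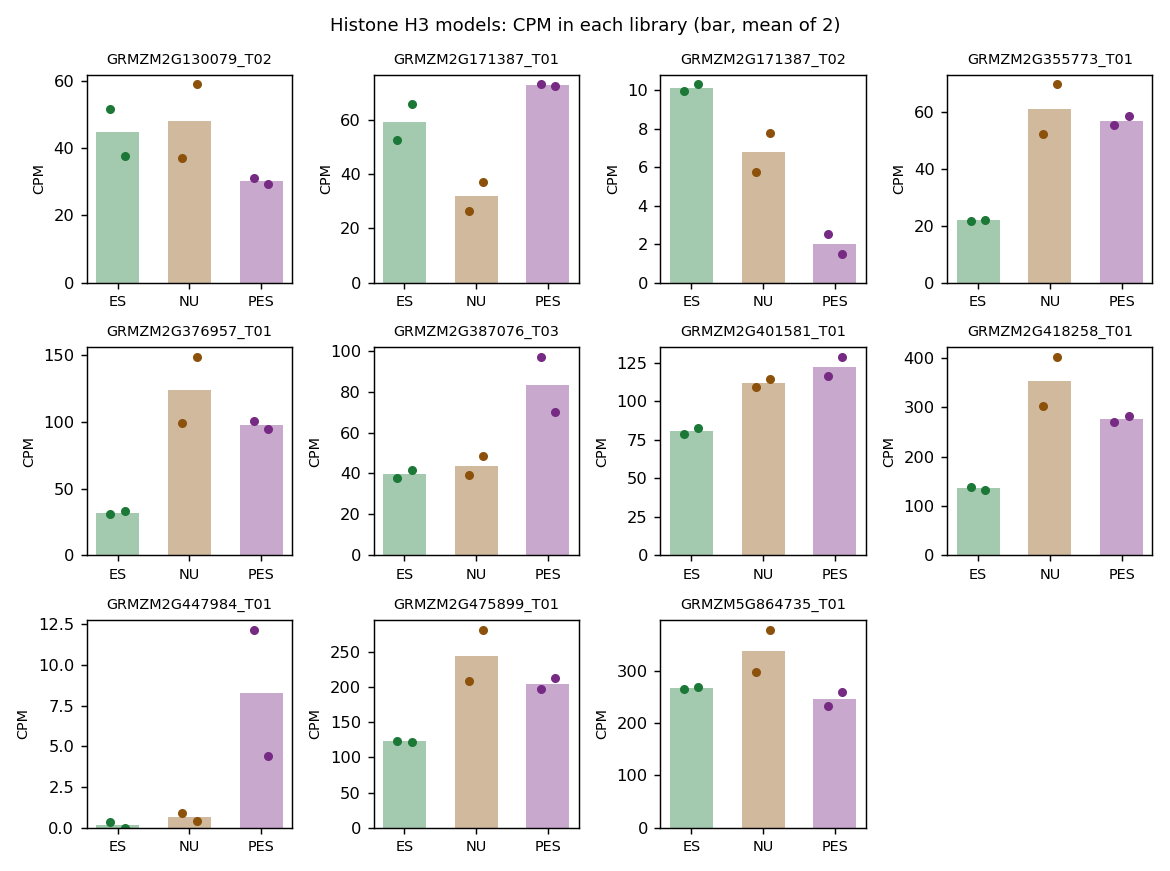
CPM of the 11 tested H3 models in each library (points) with the mean of 2 (bars), for unpollinated embryo sac (ES), nucellus (NU) and pollinated embryo sac (PES). GRMZM2G355773_T01, GRMZM2G376957_T01, GRMZM2G418258_T01 and GRMZM2G475899_T01 are lowest in unpollinated embryo sac, and GRMZM2G447984_T01 is above 4 CPM in the pollinated libraries alone.

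H4 had few calls by edgeR at the 2-fold threshold. Of 14 tested models, 1 (7.14%) was lower in embryo sac than in nucellus, where 16.3% of all tested models were lower. In that comparison 10 of the 14 had an edgeR adjusted p under 0.05, 4 upward and 6 downward. DESeq2 called 1 lower, and limma on log2(RPKM + 1) called 6 lower. The class median was 0.02, which turned to -0.73 with scaling to total reads and to -0.05 with RLE size factors. GRMZM2G479684_T01 stood at 77.1 and 59.5 CPM in unpollinated embryo sac, 182 and 249 CPM in nucellus, and 116 and 123 CPM after pollination. It was lower in embryo sac at -1.65 ± 0.13 (edgeR adjusted p = 2.56e-22), and its change of 0.80 ± 0.14 after pollination lay under the threshold. After pollination edgeR called 0 of 14 H4 models in either direction, where 32.3% of all tested models were called. An edgeR adjusted p under 0.05 was found for 7, 5 upward and 2 downward, but each changed by less than 2-fold. DESeq2 called 0 as well, and limma on log2(RPKM + 1) called 1 lower.

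On the CPM scale GRMZM2G149178_T01 was lowest in nucellus. It stood at 151 and 149 CPM in unpollinated embryo sac, 60.8 and 91.6 CPM in nucellus, and 284 and 218 CPM after pollination, and the groups did not overlap. Its RPKM was 201 and 200, 136 and 205, and 341 and 258 in the same order, so unpollinated embryo sac and nucellus overlapped on that scale. Unpollinated embryo sac was above nucellus at 0.97 ± 0.13, just under the 2-fold threshold, and pollinated embryo sac was higher than nucellus by 1.72 ± 0.13 (edgeR adjusted p = 1.87e-18), or by 0.79 with scaling to total reads, not called. Its share of the summed H4 RPKM was 11.7% in unpollinated embryo sac, 5.02% in nucellus and 16.2% after pollination. GRMZM2G181153_T01 stood at 61.5 and 75.5 CPM, 92.7 and 95.8 CPM, and 43.7 and 49.0 CPM in the same order, and was lower in pollinated embryo sac than in nucellus at -1.02 ± 0.15. This change was -0.98 without embryo sac library 2, -0.99 without nucellus library 2 and -0.92 without pollinated library 1, each under the threshold.

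The most abundant H4 model per length differed little between tissues on the CPM scale. AC233865.1_FGT001 had the highest mean RPKM of the class (437) and stood at 150 and 119 CPM in unpollinated embryo sac, 111 and 151 CPM in nucellus, and 138 and 130 CPM after pollination. All 3 groups overlapped, with log2 changes of 0.04 ± 0.12 against nucellus and -0.01 ± 0.13 after pollination. GRMZM2G016232_T01 likewise changed by 0.05 ± 0.11 and 0.14 ± 0.11, and AC212565.3_FGT001 by -0.40 ± 0.11 and 0.16 ± 0.12. The model described as H4 variant TH091, GRMZM2G412503_T01, had 5 and 6 reads in unpollinated embryo sac, 3 and 2 in nucellus, and 0 and 1 after pollination, and was not tested.

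Genes that work beside histones were read from lists of description terms. Of 17 tested models for DNA replication, 5 rose and 2 fell after pollination, where 13.0% of all tested models were higher and 19.3% lower. Their median log2 change was 0.19, against -0.08 for all tested models. In embryo sac 1 of the 17 was higher than in nucellus, where 23.2% of all tested models were higher. Without pollinated library 1 the counts after pollination were 3 and 0, and without embryo sac library 1 they were 4 and 1. The ribonucleoside-diphosphate reductase small chain model GRMZM2G323679_T01, which helps make DNA precursors, rose by 1.76 ± 0.13 from 56.8 and 62.9 CPM to 193 and 214 CPM (edgeR adjusted p = 2.34e-25). A replication factor C subunit 3-like model, GRMZM2G361855_T01, of the complex that loads the DNA polymerase clamp, was higher in embryo sac than in nucellus by 2.29 ± 0.20. The fall with the smallest p was replication factor C subunit 5 (GRMZM2G060924_T01, edgeR adjusted p = 0.0242), from 1.78 and 2.67 CPM to 0 and 0.490 CPM. These levels are low, the model is 1 of 3 of its gene, and DESeq2 called 0 falls in this list.

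Of 13 tested models for cyclins, their kinases and mitotic factors, 5 were lower and 2 higher in embryo sac than in nucellus, where 16.3% of all tested models were lower and 23.2% higher. After pollination 3 fell and 1 rose, near the 19.3% lower and 13.0% higher of all tested models. The count of rises was 0 without pollinated library 2, and 2 without pollinated library 1 or embryo sac library 2. Cell division cycle protein 20 (GRMZM2G063192_T01), an activator of the complex that ends mitosis, was lower at -1.83 ± 0.13 in embryo sac and fell by 1.33 ± 0.18 after pollination. Cyclin-dependent kinase inhibitor 2 (GRMZM2G101613_T01) was higher in embryo sac by 3.66 ± 0.21, and a cyclin-dependent kinases regulatory subunit (AC149818.2_FGT004) rose by 1.09 ± 0.13 after pollination.

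Of 19 tested models for enzymes that modify histones, 9 fell and 1 rose after pollination, where 19.3% of all tested models were lower and 13.0% higher. Their median log2 change was -1.11, against -0.08 for all tested models, and the other 9 were not called. Histone deacetylase 2b (GRMZM5G842990_T01), 1 of 2 models of its gene, fell by 4.19 ± 0.41 from 28.1 and 27.8 CPM to 1.02 and 1.96 CPM (edgeR adjusted p = 1.27e-17), and a histone-lysine N-methyltransferase (GRMZM2G305124_T01) rose by 2.13 ± 0.31. Against nucellus, 1 of 19 was higher in embryo sac, lysine-specific histone demethylase 1 (GRMZM2G000052_T01, 1.16 ± 0.46), and the count was 3 on leaving out pollinated library 1 or 2 and 2 without embryo sac library 2. In that comparison 23.2% of all tested models were higher, and the demethylase model is 1 of 3 of its gene. Among 8 tested models of histone chaperones and chromatin assembly factors, 1 rose and 1 fell after pollination, where 13.0% of all tested models were higher and 19.3% lower. The rise was lost without embryo sac library 1 or pollinated library 1. The riser was anti-silencing protein 1 (GRMZM2G492915_T02), a chaperone of H3 and H4, from 1.78 and 2.29 CPM to 6.60 and 5.39 CPM (1.54 ± 0.57). The other was nucleosome/chromatin assembly factor D (GRMZM2G145968_T02, 1 of 2 models of its gene), from 4.26 and 5.34 CPM to no read. Between embryo sac and nucellus edgeR called 0 of these 8, where 39.4% of all tested models were called. An unadjusted edgeR p under 0.05 was found for 1 upward and 3 downward. DESeq2 also called 0, and limma called 4 lower.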

How the data were processed

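Per the file headers, the authors deposited for each of the 6 libraries the unique read count per transcript model, the model length, the percent of that length covered by reads, and RPKM. Recomputed RPKM differed by at most 1.39e-08 in relative size. Models with no read are not listed and were taken as 0. No source used here gives the aligner, the counting tool or the build. Per the labels' protocols, RNA was poly(A)-selected.

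The test was edgeR 4.0.16 under R 4.3.3 on the counts (filterByExpr, TMM, robust quasi-likelihood fit of all 6 libraries), with p-values adjusted over 18844 models, and models were called at an adjusted p under 0.05 when they also differed by 2-fold or more. SE is the log2 change divided by the square root of F. TMM factors lay at 0.873 and 0.878 (unpollinated), 1.48 and 1.47 (nucellus), and 0.782 and 0.768 (pollinated). Alternatives used DESeq2 1.42.0, limma 3.58.1, other scalings, filters and subsets of libraries. On simulated data the procedure recovered, for changes of 1.5 on the log2 scale, 83.8% of models for embryo sac against nucellus (16514 models), 88.8% after pollination (15812) and 78.2% for pollinated embryo sac against nucellus (16302). There, 200 models per comparison changed at random up or down from a rate shared by all groups. The simulation therefore did not cover the shift between scalings found in the measured libraries. The changed models were drawn above a minimum expected count, so recovery of models with few reads was not covered either.

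Histone members, lists and tests were chosen with earlier results of these data known, and terms for EBE and sperm in the marker lists were corrected after the descriptions were read. Named models are those called, the highest in RPKM of each class, those whose description names a variant, and those named for comparison with them after their values were seen. Intervals give counting error alone, as PCR copies of a molecule are not separate observations. Of 59 histone genes, 28 were found in the reference gene table, which was used for gene order only. Histone subtypes by protein sequence were not analysed here.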

Additional observations from a re-analysis of the deposited data

How the results depend on the processing

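No call among the 38 changes of single histone models turned its direction under any alternative fitted on models, and the RLE size factors lost none. Counts summed per gene hold no value per model and were not part of that check. The counts below are of higher and lower histone models, beside 5 and 11 for embryo sac against nucellus, 6 and 4 after pollination, and 6 and 6 for pollinated embryo sac against nucellus. With total count scaling they were 2 and 26, 3 and 4, and 2 and 26. With limma on log2(RPKM + 1) they were 2 and 27, 3 and 5, and 3 and 27, and DESeq2 gave 2 and 11, 6 and 2, and 6 and 5. Without the fold threshold they were 10 and 25, 19 and 7, and 11 and 21, where all models called after pollination went from 6090 to 9719. Without the filter on low counts, 2 were lower after pollination, and 9 were higher in pollinated embryo sac than in nucellus. Counting only genes with 1 listed model, chosen after seeing the data, gave 3 and 8, 5 and 0, and 5 and 2. Counts summed per gene gave 4 and 11, 6 and 3, and 5 and 6.

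Leaving out 1 library gave 5 to 8 higher and 7 to 13 lower for embryo sac against nucellus, 5 to 8 higher and 2 to 3 lower after pollination, and 5 to 7 higher and 4 to 8 lower for pollinated embryo sac against nucellus. The labels do not say that replicate numbers mark a shared batch, and deviations of same-numbered libraries correlated at -0.0194, 0.0165 and 0.00359. With the number as a replicate block the counts were 5 and 11, 6 and 3, and 6 and 6.

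Total count scaling also turned the sign of the class median for H2A and H4 against nucellus (0.27 to -0.48, and 0.02 to -0.73), for H4 after pollination (0.15 to -0.03) and for H2A between pollinated embryo sac and nucellus (0.07 to -0.85). Over all models, higher and lower calls went under it from 4368 and 3065 to 2996 and 7463 for embryo sac against nucellus, from 2444 and 3646 to 1928 and 4374 after pollination, and from 5132 and 5268 to 3249 and 9250 for pollinated embryo sac against nucellus. In the neighbouring lists, lower calls against nucellus rose under that scaling from 0 to 5 for chaperones, 0 to 7 for replication, 5 to 10 for cyclins and 0 to 10 for modifying enzymes. Falls of modifying enzymes after pollination ranged from 7 to 12. Models with under about 30 reads in all are limited by depth.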
